A study of Homo sapiens with 6 samples.

Results

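The 10 genes described here are regulators and targets of YAP and TAZ, the coactivators of the Hippo pathway. They were picked by gene symbol from a table of 12308 different rows, and all 10 were present, with CTGF and CYR61 listed under these older names of CCN2 and CCN1. Their expression was measured by RNA-seq in the ovarian cancer cell line OVCAR5, which the study describes as BRCA wild-type and p53 null, and in its PrexR derivative OVCAR5R, with 3 cultures per line. To derive OVCAR5R, the dose of prexasertib (Prex), a CHK1 inhibitor, was raised stepwise to 3 µM, and the line was then kept at 2 µM and taken off the drug for 4 or more days before use, while OVCAR5 is labelled as the parent. OVCAR5R is a single derived line, neither the labels nor the methods say whether it is clonal, and the 3 libraries of a line are cultures of that line, so p-values measure the spread between cultures only.

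In the Hippo pathway, the kinases MST1/2 activate the kinases LATS1/2. LATS1/2 phosphorylate YAP (gene YAP1) and TAZ (gene WWTR1), which keeps them out of the nucleus. When unphosphorylated, YAP and TAZ enter the nucleus and bind TEAD transcription factors, which switch on genes such as CTGF, CYR61 and ANKRD1. Several targets, among them LATS2 and AMOTL2, encode inhibitors of YAP and TAZ and form a negative feedback. Because much of the control is by phosphorylation and location of the proteins, the mRNA levels of the regulators do not give the activity of the pathway.

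The deposited values are normalized signals, and they summed to between 937274 and 1038240 per library. Low values moved in steps of 1 estimated read, which gave 35800000 to 55100000 estimated reads per library on the listed genes. The lowest value of any member, ANKRD1 in OVCAR5 replicate 1, rested on 1110 estimated reads, so counting error was small beside the spread between cultures. The library labelled OVCAR5 replicate 2 stood apart. Across tested genes its log2 values had Pearson's r of 0.898 and 0.883 with OVCAR5 replicates 1 and 3, which had 0.955 with each other. It also differed in epithelial markers, of which 5 of the 8 looked for were in the table. EPCAM, an epithelial adhesion molecule, had a value of 597 in OVCAR5 replicate 2 and between 11.9 and 31.7 in the other 5 libraries, and the keratin gene KRT19 had 1341 against 3.09 to 10.7. The keratin genes KRT8 and KRT18 were high in every library, the lowest value being 1031, and highest in OVCAR5 replicate 2. KRT8 had 7772 there against 1031 to 2103 in the other libraries, and KRT18 had 6196 against 1108 to 1992. CLDN4, a tight junction gene, had 464 against 68.6 to 142. The summed level of the 5 epithelial markers ranged from 2295 to 16369 in OVCAR5 and from 3174 to 4233 in OVCAR5R. Of 10 fibroblast, endothelial and blood cell markers 3 were in the table (COL1A1, PDGFRB and CD68), and they summed to 49.5 to 70.0 in OVCAR5 and 78.5 to 82.8 in OVCAR5R. Most of each sum was CD68 alone (40.7 to 72.8 over the 6 libraries). PDGFRB was at 0.14 to 1.90, and COL1A1 was highest in OVCAR5 replicate 2 (15.2), so the sums do not describe these cell types as a group. Log2 fold changes below compare OVCAR5R with OVCAR5, come from limma on log2(value + 1), and are followed by ± their standard error. The part of these marker differences in the results was not tested. All 3 libraries carry the label OVCAR5, and which of them represent the line as labelled was not tested, so every fold change here rests on the labels. Values of the members and the medians of the gene lists are also given without OVCAR5 replicate 2. In bulk RNA, fewer cells of a type and less RNA per cell cannot be told apart.

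**Figure D1:**
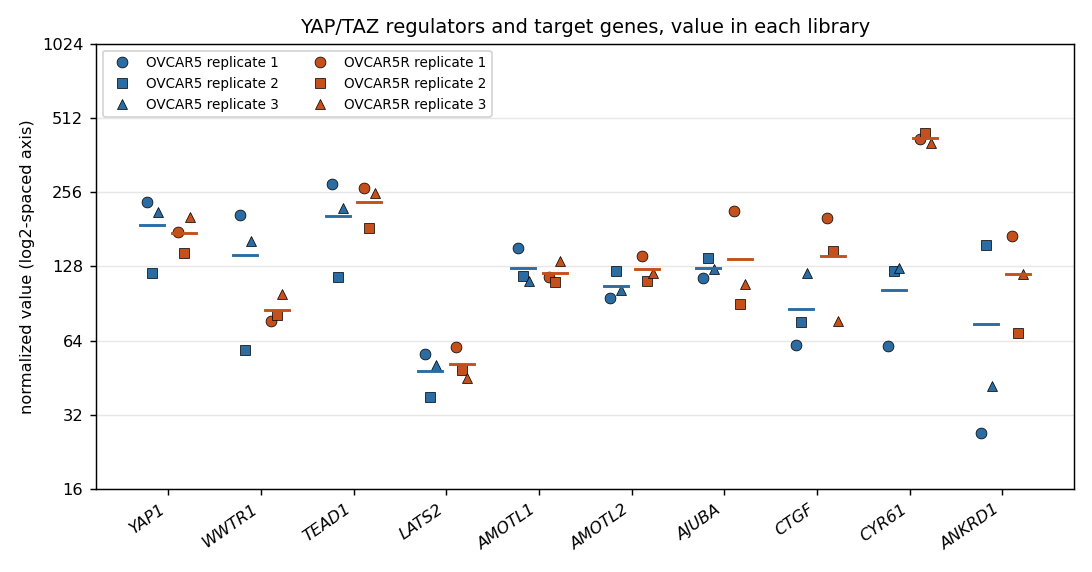
Normalized value of each of the 10 genes in each library (points, with the shape giving the replicate number) on a log2-spaced axis, with the mean of each cell line as a bar. For CYR61, the OVCAR5R libraries lay between 405 and 444 and the OVCAR5 libraries between 60.7 and 126, while the points of the other 9 genes overlapped between the lines.

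Expression of the coactivators was compared between OVCAR5R and OVCAR5 first. YAP1, at chr11:102110461-102233423 on the plus strand (all positions are GRCh38), was measured at normalized values of 234, 121 and 212 in OVCAR5 (replicates 1 to 3, in this order throughout) and 177, 146 and 203 in OVCAR5R. The OVCAR5R values lay inside the range of the OVCAR5 values. The log2 fold change was -0.07 ± 0.29 (95% interval -0.73 to 0.59, adjusted p = 0.957). Without OVCAR5 replicate 2 it was -0.36 ± 0.21 (adjusted p = 0.612), and the OVCAR5R libraries then lay below both OVCAR5 libraries. WWTR1, which encodes TAZ, lies at chr3:149517235-149736714 on the minus strand. It had values of 206, 58.7 and 162 in OVCAR5 and 76.6, 81.1 and 98.6 in OVCAR5R. OVCAR5 replicates 1 and 3 were above every OVCAR5R library, and OVCAR5 replicate 2 was below every OVCAR5R library. WWTR1 had a log2 fold change of -0.56 ± 0.43 (adjusted p = 0.686), and without OVCAR5 replicate 2 of -1.10 ± 0.22 (adjusted p = 0.144), with no overlap of the libraries. Without OVCAR5 replicate 1 it was -0.20 (adjusted p = 0.906), and without OVCAR5 replicate 3 it was -0.37 (adjusted p = 0.777). WWTR1 did not pass the threshold in any of these fits, and its size depended on which OVCAR5 library was left out.

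The levels of YAP1 and WWTR1 were also set against each other within a library. The ratio of the WWTR1 value to the YAP1 value was 0.881, 0.486 and 0.763 in OVCAR5 and 0.433, 0.556 and 0.486 in OVCAR5R. The groups overlapped through OVCAR5 replicate 2 (exact two-sided permutation test of the log2 ratio, p = 0.2, where the smallest p that 3 against 3 libraries allow is 0.1). TEAD1, at chr11:12674591-12944483 on the plus strand, encodes a DNA-binding partner through which YAP and TAZ reach their target genes. Its values were 277, 116 and 221 in OVCAR5 and 266, 183 and 254 in OVCAR5R. Again OVCAR5 replicate 2 was the lowest of all 6 libraries, and the other 5 overlapped. TEAD1 had a log2 fold change of 0.26 ± 0.34 (adjusted p = 0.825) with all libraries and -0.10 ± 0.24 (adjusted p = 0.913) without OVCAR5 replicate 2, so its sign depended on that library.

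YAP1, WWTR1 and TEAD1 were thus all low in OVCAR5 replicate 2. On the log2 scale that library lay below the mean of OVCAR5 replicates 1 and 3 by a difference of -0.88 for YAP1, -1.62 for WWTR1 and -1.08 for TEAD1. Of all tested genes, 81.4%, 95% and 88.1% had a difference of that size or smaller in either direction. The SD of WWTR1 over the OVCAR5 libraries was 0.95 on the log2 scale against a median of 0.34 over all tested genes, while over the OVCAR5R libraries it was 0.19 against 0.25.

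LATS2 and the scaffold genes encode proteins that hold YAP and TAZ in check or tune the kinases. LATS2, a kinase that phosphorylates YAP and TAZ and whose gene is itself a YAP/TAZ target, lies at chr13:20973032-21061547 on the minus strand. It had values of 56.6, 37.7 and 50.9 in OVCAR5 and 60.1, 48.8 and 45.2 in OVCAR5R. The groups overlapped, and LATS2 differed by a log2 fold change of 0.09 ± 0.23 (95% interval -0.44 to 0.62, adjusted p = 0.920). Without OVCAR5 replicate 2 it was -0.07.

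AMOTL1 and AMOTL2 encode angiomotin-like proteins, which bind YAP at cell junctions. AMOTL1, at chr11:94706431-94876753 on the plus strand, had values of 151, 117 and 112 in OVCAR5 and 116, 110 and 134 in OVCAR5R, with a log2 fold change of -0.07 ± 0.20 (95% interval -0.54 to 0.40, adjusted p = 0.935). The 6 libraries were intermixed, and the value was -0.12 without OVCAR5 replicate 2. AMOTL2, a target gene at chr3:134355874-134375479 on the minus strand, had values of 95, 123 and 103 in OVCAR5 and 141, 112 and 121 in OVCAR5R. Only OVCAR5 replicate 2 reached into the OVCAR5R range, and the log2 fold change of AMOTL2 was 0.22 ± 0.20 (adjusted p = 0.734). Without that library the groups did not overlap and the log2 fold change was 0.32 ± 0.20 (adjusted p = 0.619). It was 0.13 without OVCAR5R replicate 1 and 0.14 without OVCAR5 replicate 1.

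AJUBA, a LIM-domain protein that binds LATS kinases and limits their activity, lies at chr14:22971174-22982642 on the minus strand. It had values of 115, 139 and 125 in OVCAR5 and 214, 89.9 and 108 in OVCAR5R. The OVCAR5R libraries lay on both sides of OVCAR5, with replicate 1 above and replicates 2 and 3 below all OVCAR5 libraries. AJUBA had a log2 fold change of 0.02 ± 0.32 (adjusted p = 0.990), 0.09 without OVCAR5 replicate 2, and -0.35 without OVCAR5R replicate 1 (adjusted p = 0.793). The SD of AJUBA over the OVCAR5R libraries was 0.65 on the log2 scale, against a median of 0.25 over all tested genes.

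The target genes differed in how far they moved. CYR61, a secreted matricellular protein and an immediate target of YAP/TAZ, lies at chr1:85580761-85583962 on the plus strand. CYR61 was measured at 60.7, 123 and 126 in OVCAR5, against 422, 444 and 405 in OVCAR5R. Every OVCAR5R library was far above the highest OVCAR5 library, and the OVCAR5R libraries were close to each other. Mean values (± SD, n = 3 per line) were 103 ± 36.8 for the parent and 424 ± 19.6 for OVCAR5R, a 4.29-fold difference on the log2(value + 1) scale. Its log2 fold change of 2.10 ± 0.30 (95% interval 1.42 to 2.78) had an unadjusted p of 0.000102 and an adjusted p of 0.0663 over all 11766 genes tested (limma), which missed the threshold of 0.05. Without OVCAR5 replicate 2 it was 2.26 (adjusted p = 0.0524), and with a weight for each library 2.26 (adjusted p = 0.0244), the alternative among 14 in which it passed. Over these alternatives the log2 fold change lay between 1.76 and 2.28 and the adjusted p between 0.0244 and 0.227. Of all tested genes, 21 had a log2 fold change at least that of CYR61, CYR61 included, which is 0.178% of them, and 16 (0.136%) had an unadjusted p as low or lower. The SD of CYR61 over the OVCAR5R libraries was 0.07 on the log2 scale.

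CTGF encodes a secreted protein of the same CCN family and is the most widely used reporter of YAP/TAZ activity. The gene lies at chr6:131948176-131951373 on the minus strand. Its values were 61.5, 76.0 and 120 in OVCAR5 and 201, 147 and 76.5 in OVCAR5R. OVCAR5R replicates 1 and 2 were above every OVCAR5 library, and OVCAR5R replicate 3 lay within the OVCAR5 range. CTGF had a log2 fold change of 0.66 ± 0.39 (95% interval -0.23 to 1.56, adjusted p = 0.589). With single libraries left out it ranged from 0.36 without OVCAR5R replicate 1 (adjusted p = 0.867) to 1.05 without OVCAR5R replicate 3 (adjusted p = 0.562), and it was 0.61 without OVCAR5 replicate 2 (adjusted p = 0.676).

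ANKRD1, a nuclear ankyrin-repeat cofactor, lies at chr10:90912096-90921276 on the minus strand. It had values of 27.0, 156 and 41.7 in OVCAR5 and 169, 69.0 and 119 in OVCAR5R. OVCAR5 replicate 2 lay among the OVCAR5R libraries, and OVCAR5 replicates 1 and 3 lay below all of them. Over all libraries ANKRD1 differed by a log2 fold change of 0.98 ± 0.61 (adjusted p = 0.613), and without OVCAR5 replicate 2 by 1.70 ± 0.39 (adjusted p = 0.186). Without OVCAR5 replicate 1 it was 0.46 (adjusted p = 0.846). The direction was the same in these fits and none passed the threshold.

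Within a library, the CYR61 value was 0.988, 1.62 and 1.05 times the CTGF value in OVCAR5 and 2.10, 3.01 and 5.29 times in OVCAR5R. The groups did not overlap, and the log2 ratio was higher in OVCAR5R by 1.44 (exact two-sided permutation test, p = 0.1, the smallest p possible with 3 against 3). This ratio was chosen after the values were seen. The ratio of CYR61 to ANKRD1 overlapped between the lines (0.788 to 3.02 in OVCAR5 and 2.49 to 6.44 in OVCAR5R, exact p = 0.2).

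Values of different genes were compared per kilobase of annotated exon, since longer transcripts give more reads. In OVCAR5 the order of levels per kilobase was CYR61 (42.0 ± 15), ANKRD1 (37.8 ± 35.7), CTGF (36.7 ± 13.1), YAP1 (30.0 ± 9.54), AJUBA (21.1 ± 1.99), TEAD1 (19.9 ± 7.92), AMOTL2 (17.9 ± 2.39), WWTR1 (16.9 ± 8.99), AMOTL1 (12.6 ± 2.16) and LATS2 (8.67 ± 1.74), each as mean ± SD with n = 3. Of the neighbours in this order, AMOTL1 and LATS2 had libraries that did not overlap, and all other neighbours overlapped. In OVCAR5R, CYR61 was at 173 ± 8.0 per kilobase, apart from CTGF at 60.6 ± 26.7 and ANKRD1 at 60.2 ± 25.4, which overlapped each other. YAP1 followed at 27.8 ± 4.53 without overlap with ANKRD1. AJUBA, TEAD1 and AMOTL2 lay between 20.8 and 23.0 and overlapped, and AMOTL1, WWTR1 and LATS2 were lowest, between 9.21 and 12.0, without overlap between AMOTL2 and AMOTL1. LATS2 was the lowest member in both lines.

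**Figure D2:**
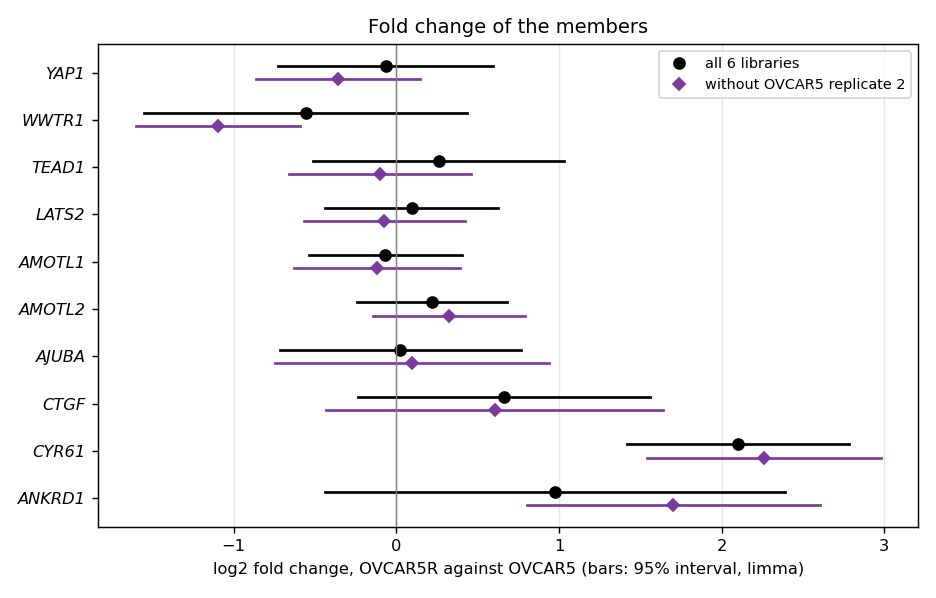
Log2 fold change in OVCAR5R against OVCAR5 for each of the 10 genes, with the 95% interval from limma, for all 6 libraries (circles) and without OVCAR5 replicate 2 (diamonds). With all libraries the interval of CYR61, from 1.42 to 2.78, was the one that did not include 0, and without OVCAR5 replicate 2 those of WWTR1 (-1.60 to -0.59) and ANKRD1 (0.80 to 2.60) did not include 0 either.

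Of the 10 members, 0 had an adjusted p under 0.05 with limma, against 14 of all 11766 genes tested (0.119%), of which 2 were higher in OVCAR5R (0.017%). At an unadjusted p under 0.05 there was 1 member, CYR61, higher in OVCAR5R, where 10.4% of all genes passed in either direction (4.14% higher and 6.25% lower). CYR61 was also the member with a log2 fold change of at least 1, which 1.82% of all genes had. The libraries of 1 member, again CYR61, did not overlap between the lines, against 16.6% of all genes (8.4% higher and 8.18% lower). By their means 7 members were higher and 3 lower in OVCAR5R, where 49.2% of all genes were higher. The median log2 fold change of the members was 0.16, and that of all genes was -0.01.

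Leaving out OVCAR5 replicate 2 changed which members overlapped. An adjusted p under 0.05 was again reached by 0 members, against 0.205% of the 11711 genes then tested (0.0512% higher). At an unadjusted p under 0.05 there were 2 higher members, CYR61 and ANKRD1, against 4.33% of all genes, and 1 lower member, WWTR1, against 6.43%. Libraries no longer overlapped for 3 higher members, CYR61, ANKRD1 and AMOTL2 (13.7% of all genes), and for 2 lower members, YAP1 and WWTR1 (13.6%). By their means 5 of the 10 members were higher, where 49.9% of all genes were. Both coactivator genes were thus lower, and CYR61, ANKRD1 and AMOTL2 higher, in every OVCAR5R library than in OVCAR5 replicates 1 and 3. The targets CTGF (log2 fold change 0.61) and LATS2 (-0.07) overlapped in this fit. With OVCAR5 replicate 2 included, CYR61 was the only member without overlap.

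The promoters were read because CTGF and ANKRD1 are textbook TEAD targets, and the motif shows how the sites are placed in genes whose levels were compared above. The TEAD core motif GGAATG was searched on both strands (CATTCC on the other) in RefSeq promoter windows of GRCh38.p14, each from 250 bases before to 50 bases after a transcription start. Promoter windows were found for 8 of the 10 members (11 windows), and not for CYR61 and TEAD1. The motif was in 6 of the 11 windows, from 6 genes, and in 14% of all 35116 windows. CTGF had 3 copies, which 0.128% of all windows had or exceeded, and ANKRD1 had 2, which 1.37% had or exceeded. The 250 bases before the start of each gene are printed here 5′ to 3′ on the gene's strand, with the motif in capitals, for CTGF (chr6:131951373-131951622, minus strand) and ANKRD1 (chr10:90921088-90921337, minus strand).
CTGF: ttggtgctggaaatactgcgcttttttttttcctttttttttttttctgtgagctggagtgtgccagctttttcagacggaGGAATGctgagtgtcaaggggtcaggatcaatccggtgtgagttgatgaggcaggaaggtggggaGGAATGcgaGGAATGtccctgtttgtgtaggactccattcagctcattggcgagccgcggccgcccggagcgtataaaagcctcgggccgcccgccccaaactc
ANKRD1: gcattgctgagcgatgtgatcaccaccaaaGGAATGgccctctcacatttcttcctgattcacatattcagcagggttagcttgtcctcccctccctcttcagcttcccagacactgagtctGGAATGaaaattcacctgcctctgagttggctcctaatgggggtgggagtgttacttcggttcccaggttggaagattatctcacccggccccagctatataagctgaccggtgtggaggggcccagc
In CTGF the copies began 169, 104 and 95 bases before the start, the latter 2 almost side by side, and in ANKRD1 they began 220 and 128 bases before it. All these distances are from RefSeq starts, while the gene positions given above are from GENCODE and can start elsewhere. By the GENCODE position of ANKRD1, its copy at 128 bases lies inside the gene. None of the 10 members passed the test, with or without the motif, where 0.119% of all genes did. The motif could therefore not be set against the calls. The single copies near YAP1, AMOTL2, AJUBA and LATS2 are shown with 10 bases on either side. They lie at chr11:102110275-102110300 (plus strand), chr3:134374501-134374526, chr14:22976886-22976911 and chr13:21061562-21061587 (minus strand for the latter 3).
YAP1: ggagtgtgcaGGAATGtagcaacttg
AMOTL2: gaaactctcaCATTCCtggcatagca
AJUBA: gaagttggctGGAATGaagccaaagc
LATS2: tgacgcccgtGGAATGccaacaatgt
The copy began 162 bases before the RefSeq start in YAP1, 69 in AMOTL2 and 59 in AJUBA, and at base 10 after it in LATS2. By the GENCODE positions, the copies of AMOTL2 and AJUBA lie inside the gene, and that of LATS2 lies before its start. For AMOTL2 and AJUBA it was in 1 of the 2 windows listed. A match is a description of letters and does not show binding.

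**Figure D3:**
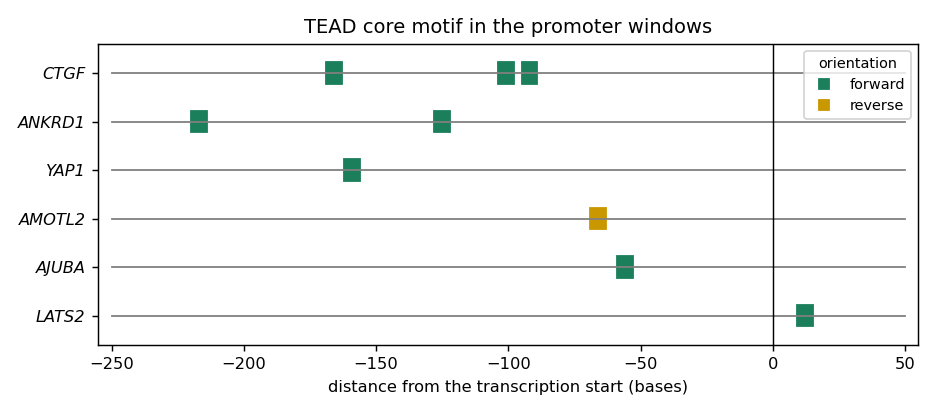
Position of the TEAD core motif in the promoter windows that hold it, as distance in bases from the RefSeq transcription start. Each mark begins at the first base of a match and is as wide as the motif, with the colour giving the orientation. CTGF holds 3 copies and ANKRD1 holds 2, and the copy of AMOTL2 is in the reverse orientation.

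The genes nearest to the 3 targets in pattern were found by the root mean square difference of log2 values, each centred over the 6 libraries. They were picked for this likeness, so a shared pattern, fold change or p-value follows from the choice and is no separate result. RGS10, a regulator of G protein signalling, was nearest to CTGF with a difference of 0.11 on the log2 scale, against a median of 0.68 over all tested genes, followed by QSOX1 (0.21) and ARHGAP10 (0.22). RGS10 had values of 30.0, 33.3 and 56.6 in OVCAR5 and 111, 77.0 and 40.3 in OVCAR5R, so it too was high in OVCAR5R replicates 1 and 2 and lower in replicate 3. DKK1, a secreted WNT inhibitor, was nearest to CYR61 (0.41 against a median of 1.15) with a log2 fold change of 2.11 (adjusted p = 0.0894, limma), followed by SERPINB2 (0.44) and MOB3B (0.45). SERPINB2 was near the floor, at 0, 0 and 0.05 in OVCAR5 and 2.00, 3.37 and 1.51 in OVCAR5R, so it passed the filter of 1 through OVCAR5R only. CSF2RA (0.25), NANOS1 (0.41) and F3 (0.41) were nearest to ANKRD1, against a median of 1.03.

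The wider set of YAP/TAZ targets was read from a list of 22 genes used as a pan-cancer signature, of which 20 were tested, 5 of them members. FOXF2 was not in the table and IGFBP3 was below the filter. Of the 20, 16 were higher by their mean in OVCAR5R, where 49.2% of all genes were. An adjusted p under 0.05 was reached by 0 (0.119% of all genes), and an unadjusted p under 0.05 by 2, both higher (4.14% of all genes). The median log2 fold change of the list was 0.38, and of its 15 genes that are not members 0.35, with 11 of 15 higher by mean. Without OVCAR5 replicate 2, 4 of the 20 were higher and 1 lower at an unadjusted p under 0.05 (limma), against 4.33% and 6.43% of all genes. Libraries then did not overlap for 5 higher and 2 lower genes of the list, against 13.7% and 13.6% of all genes. In that fit the median of the 15 genes that are not members was 0.05, with 10 of 15 higher (49.9% of all genes), and the median of all 20 was 0.21. The median of the 20 was 0.19 without OVCAR5R replicate 1, so its size rested on these libraries.

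The highest signature genes after CYR61 were NUAK2 and F3. NUAK2, a kinase of the AMPK family, showed a log2 fold change of 1.15 ± 0.40 (adjusted p = 0.388), with values of 20.9, 17.1 and 11.8 in OVCAR5 and 20.7, 62.7 and 39.2 in OVCAR5R. OVCAR5R replicates 2 and 3 were above every OVCAR5 library. F3, the coagulation initiator tissue factor, had 35.1, 237 and 132 in OVCAR5 and 301, 137 and 268 in OVCAR5R, a log2 fold change of 1.10 (adjusted p = 0.589), with OVCAR5 replicate 2 among the OVCAR5R libraries as for ANKRD1, and 1.69 without that library (adjusted p = 0.362). GADD45A, a stress-response gene, had libraries that did not overlap between the lines, as for 8.4% of all genes in this direction. It differed by 0.41 ± 0.22 on the log2 scale (adjusted p = 0.548). The lowest were MYOF, a membrane repair protein (-0.34), PTPN14, a phosphatase that binds YAP (-0.24, and -0.86 without OVCAR5 replicate 2), and TGFB2, a TGF-beta ligand (-0.01, and -0.23 without OVCAR5 replicate 2).

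**Figure D4:**
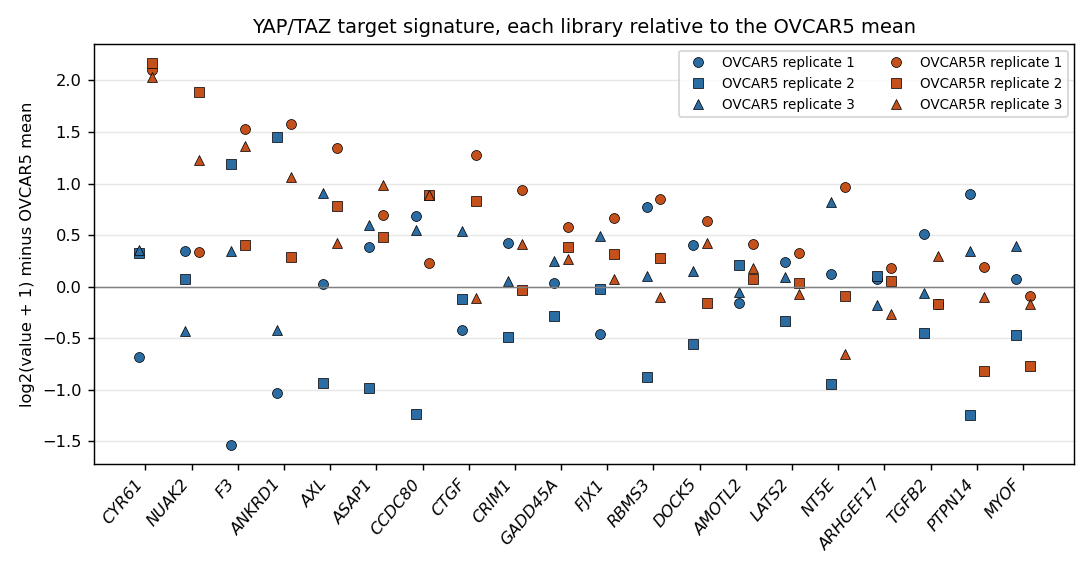
Log2(value + 1) of the 20 tested genes of the target signature in each library, minus the mean of the 3 OVCAR5 libraries, ordered by log2 fold change. For CYR61 the 3 OVCAR5R points lie above all OVCAR5 points and close together, GADD45A is the other gene without overlap, and OVCAR5 replicate 2 lies among the OVCAR5R points for F3 and ANKRD1.

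The coactivators with the TEAD family and its VGLL partners were a list of 9 genes, of which 8 were tested. Of these, 3 were higher and 5 lower by mean, 0 had an unadjusted p under 0.05 (10.4% of all genes), and the median log2 fold change was -0.08. VGLL3, a TEAD-binding cofactor, was highest (0.61) at values of 4.04 or less, followed by TEAD4 (0.52) and TEAD1. The lowest were WWTR1, VGLL4 (-0.42), which competes with YAP for TEAD, and TEAD3 (-0.19). When OVCAR5 replicate 2 was left out, TEAD4 was 0.15 and TEAD3 turned to 0.22. The median of the list was then -0.22, and without OVCAR5 replicate 1 it was 0.22, so it had no stable sign.

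The kinase core of 11 genes, all tested, had 5 higher and 6 lower by mean and a median of -0.04. MOB1B, an activating cofactor of LATS, was highest at 0.57 ± 0.65, followed by STK4 (0.44), which encodes MST1, and SAV1 (0.23), the scaffold of MST1/2. MAP4K4, a kinase that can act on LATS beside MST1/2, was lowest at -0.67 ± 0.32 (adjusted p = 0.515), then TAOK3 (-0.30) and TAOK2 (-0.20), which encode kinases upstream of MST1/2. MAP4K4 had values of 713, 343 and 742 in OVCAR5 and 394, 305 and 377 in OVCAR5R. OVCAR5 replicate 2 fell within the OVCAR5R range, and without it the log2 fold change was -1.03 ± 0.21 (adjusted p = 0.155). The values of MOB1B, STK4 and SAV1 were 0.21, 0.11 and 0.67 without OVCAR5 replicate 2. Of the list, 0 genes had an unadjusted p under 0.05 with all libraries, against 10.4% of all genes. The libraries of TAOK3 did not overlap between the lines and were lower in OVCAR5R, as for 8.18% of all genes. The median of the list was -0.24 without OVCAR5 replicate 2 and 0.10 without OVCAR5 replicate 1.

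Among 22 tested genes of 23 junction and scaffold regulators, 15 were higher and 7 lower by mean, with a median of 0.16. The highest were FRMD6 (1.23), a FERM-domain protein upstream of the kinases, MPP5 (0.78), a polarity scaffold also named PALS1, and WWC2 (0.59), a relative of the LATS activator KIBRA. MPP5 had the only unadjusted p under 0.05 in this list (adjusted p = 0.367, limma), and 3 genes, MPP5, WWC2 and WTIP, did not overlap between the lines, all higher in OVCAR5R. Of all genes tested, 10.4% had such a p and 16.6% did not overlap (8.4% higher), against 1 and 3 of the 22 here. FRMD6 had values of 68.9, 20.1 and 104 in OVCAR5 and 164, 117 and 101 in OVCAR5R, so OVCAR5 replicate 3 reached the lower end of OVCAR5R. Without OVCAR5 replicate 2, FRMD6 was 0.55 (adjusted p = 0.549) and no longer the highest, with WWC1 at 1.18 and PATJ, a polarity scaffold, at 0.97. In that fit 3 genes of the list were higher and 4 lower at an unadjusted p under 0.05, against 4.33% and 6.43% of all genes, and the median was 0.10. It was 0.01 without OVCAR5R replicate 1. The lowest were the protocadherin-type genes FAT4 (-0.69) and FAT1 (-0.45), and the polarity gene DLG1 (-0.37), which were -1.24, -0.50 and -0.59 without OVCAR5 replicate 2. WWC1, which encodes KIBRA, had 352 in OVCAR5 replicate 2 and 29.8 and 64.3 in OVCAR5 replicates 1 and 3, against 80.1 to 114 in OVCAR5R.

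The 13 subunits of STRIPAK, the phosphatase complex that turns off MST1/2, were all tested. Of these, 8 were higher and 5 lower by mean, and 0 had an unadjusted p under 0.05, against 10.4% of all genes. The libraries of STK24 did not overlap between the lines and were lower in OVCAR5R, as for 8.18% of all genes. The median of the list was 0.05, or -0.06 without OVCAR5 replicate 2. The highest were STRN3 (0.51), STK25 (0.25) and STRN (0.09), of which STK25 was 0.05 and STRN -0.14 without that library, and the lowest were STK24 (-0.29), PPP2R1A (-0.18) and FGFR1OP2 (-0.09). Over the 5 pathway lists, 0 genes had an adjusted p under 0.05 (limma), against 0.119% of all genes.

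Genes near a member can shift with it, so the tested genes that start within 5 Mb on either side were summarized. The 31 neighbours of CYR61 had a median log2 fold change of 0.15, against 2.10 for CYR61 itself. The 46 neighbours of ANKRD1 had a median of 0.06, and the 22 neighbours of WWTR1 had -0.15. For the other members the medians lay between -0.24, near LATS2, and 0.10, near TEAD1. An adjusted p under 0.05 (limma) was reached by 0 neighbours of any member, against 0.119% of all genes, too small a share to tell the neighbourhoods apart. The medians of the neighbours differed between libraries, near LATS2 for example from -0.32 to 0.20 within OVCAR5. Those of CTGF and AJUBA are given here. The 21 neighbours of CTGF had medians of 0.12, 0.07 and -0.62 in OVCAR5R replicates 1, 2 and 3 relative to the OVCAR5 mean, with OVCAR5 libraries from -0.15 to 0.22, and CTGF was lowest of the OVCAR5R libraries in replicate 3. The 77 neighbours of AJUBA had medians of 0.33, 0.03 and -0.14 in OVCAR5R and -0.07, 0.25 and -0.12 in OVCAR5. AJUBA was highest in OVCAR5R replicate 1 and, within OVCAR5, in replicate 2, the libraries with the highest medians. Other libraries did not follow this order. AJUBA was lower in OVCAR5R replicate 2 (89.9) than in replicate 3 (108), while the median was higher in replicate 2. CTGF was lowest in OVCAR5 replicate 1 (61.5), the OVCAR5 library with the highest median of its neighbours (0.22). The part of the neighbourhood in these values was not tested.

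**Figure D5:**
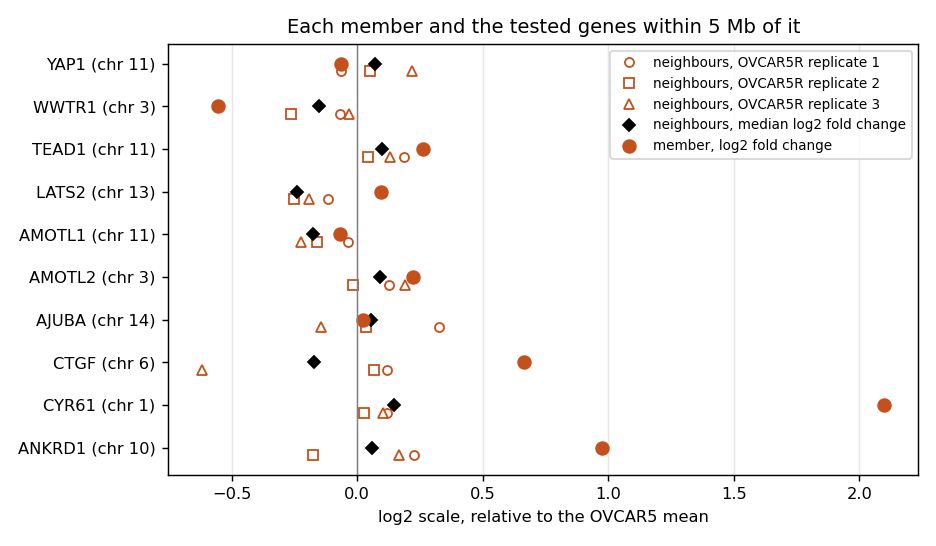
Log2 fold change of each member (filled circles), median log2 fold change of the tested genes within 5 Mb of it (diamonds), and median of those genes in each OVCAR5R library relative to the OVCAR5 mean (open symbols). CYR61 at 2.10 is far from its neighbours at 0.15, and the open triangle in the row of CTGF marks OVCAR5R replicate 3 at -0.62.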

How the data were processed

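RNA-seq was performed by the authors on total RNA from 3 cultures of OVCAR5 and 3 of OVCAR5R. The authors deposited 1 table of normalized signal on a linear scale, of 12309 rows named by symbol, each with a value for every culture. Per the supplementary methods, datasets were quartile normalized, and the submitters' processing notes name hg38. The aligner, the counter and the gene filter are not given in the sources used here. Taking the smallest step of a library as 1 read, 61.7% to 65.8% of its values were whole reads (tolerance 0.005), too few for count models. A row present in identical copies was kept once, which left 12308 rows.

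Values were analyzed as log2(value + 1). Genes that reached 1 in 3 or more libraries (11766) entered limma (version 3.58.1, R version 4.3.3, lmFit, eBayes with trend, no covariates), with two-sided p-values adjusted over all tested genes by the Benjamini-Hochberg method at 0.05. The test was checked on simulated data with independent normal noise and no outlying library. That check therefore does not cover a library that stands apart, such as OVCAR5 replicate 2. The members, the gene lists and the tests were chosen with earlier results of these data known. The lists were written from general knowledge of the pathway, and the ratios of genes within a library were chosen after seeing the data. The genes named are the 10 members, the 3 highest and 3 lowest of each list, genes with an adjusted p under 0.05 in a list, and the 3 genes nearest in pattern to CTGF, CYR61 and ANKRD1. Other genes named with values were chosen after these were seen. Alternatives were 2 other normalizations, 2 other filters, limma without trend, a pseudocount of 0.1, library weights, a replicate block, the omission of single libraries, and a wider window around the members. Positions and exon lengths came from GENCODE release 29 (GRCh38), in which 99.4% of the tested symbols were found. Promoter sequences came from RefSeq (GRCh38.p14). Figures were drawn with matplotlib version 3.10.9.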

Additional observations from a re-analysis of the deposited data

How the results depend on the processing

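Of the 140 values of single members under 14 alternatives, 128 kept their direction and side of the threshold, 1 passed it (CYR61 with library weights, 2.26), and 11 turned in sign, in members whose log2 fold change lay between -0.07 and 0.26. With library weights LATS2 was -0.043 and AJUBA -0.024. With a library left out, the log2 fold change ranged from -0.36 to 0.12 for YAP1, from -0.10 to 0.52 for TEAD1, from -0.073 to 0.21 for LATS2, from -0.15 to 0.066 for AMOTL1, from -0.35 to 0.28 for AJUBA, from -1.10 to -0.20 for WWTR1, from 0.13 to 0.32 for AMOTL2, from 0.36 to 1.05 for CTGF and from 0.46 to 1.70 for ANKRD1. Of all genes tested, 2 were higher and 12 lower in OVCAR5R at an adjusted p under 0.05, against 1 and 4 with the replicate block and 7 and 23 with library weights. With a library left out these counts ranged from 0 to 6 and from 0 to 18. The count was 24 without OVCAR5 replicate 2, which kept 13 of the 14 calls, 0 without OVCAR5R replicate 3, and between 2 and 10 without each of the others. With library weights 1 member and 1 gene of the 5 pathway lists were higher, CYR61 in both counts. With a library left out, the median of the STRIPAK list ranged from -0.061 (without OVCAR5 replicate 2) to 0.076. With a window of 10 Mb, the median near WWTR1 was -0.003 in place of -0.15, and the cause was not tested. The samples shared only a replicate number: deviations of same-numbered libraries from their line's mean had correlations of -0.004, 0.176 and -0.119, and with the replicate block CYR61 had an adjusted p of 0.160. With 3 libraries per line, the spread between cultures limits what can be called.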
